A study of Mus musculus with 9 samples.

Results

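Ribosome biogenesis is the making of ribosomal RNA in the nucleolus and its assembly with ribosomal proteins into the small and large ribosomal subunits. The genes described here are 38 that encode RNA polymerase I and its upstream factor, nucleolar proteins, the small nucleolar ribonucleoproteins (snoRNPs) that modify ribosomal RNA, and assembly factors of both subunits. They were chosen by name, with earlier results of these data known. Each was read from the brightest array feature that the annotation assigns to its symbol alone. That gave 35 of the 38 genes, all of which passed the filter on dim genes, among 16403 genes tested. Gnl3, Nop56 and Ebna1bp2 lie only on features that name several symbols, and they are given no value.

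RNA came from the thoracic aortic endothelium of mice, flushed from the lumen with lysis reagent, with 1 aorta on each array. The mice called ACDiEKO had Mef2a f/f, Mef2c f/f and Mef2d f/f alleles together with Cdh5-CreERT2, a recombinase driven by an endothelial promoter and activated by tamoxifen. Controls carried the same floxed alleles without the recombinase and received the same tamoxifen, so an effect of the recombinase and an effect of MEF2 loss cannot be told apart. All mice were female, and the 5 daily injections were given at 10 weeks of age. The day of harvest is unsettled, since the series gives day 7 from the first injection where the samples' protocols give day 14. There were 4 control and 5 ACDiEKO arrays. ACDiEKO replicates 1 and 2 were nearly identical (the difference between them had a robust SD of 0.0707 over bright features, against 0.2682 to 0.4012 for the 15 other pairs within a group), so they were averaged and counted as 1 sample, which left 4 samples against 4. Their titles carry different animal numbers, and whether replicates 1 and 2 came from 1 aorta is not known. Values are log2 units of the deposited table, and differences are ACDiEKO minus control. The number of arrays limits the precision.

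The floxed genes did not differ by the test: Mef2a by 0.12, Mef2c by 0.06 and Mef2d by 0.23 (limma, adjusted p = 0.441, 0.66 and 0.111). Their features summarise probes along the whole transcript, and such values are no check of the genotype. Of 16403 tested genes, 8.92% rose and 7.33% fell in ACDiEKO (1463 and 1203 genes). The split depended on scaling, with 1851 higher and 960 lower after median centring and 1970 and 1038 after quantile normalization. The mean over 9 endothelial marker genes was 13.50 to 13.94 in controls and 13.21 to 13.82 in ACDiEKO. Of these genes, 2 rose (Emcn 3.72, Kdr 0.96), 3 fell (Cldn5 -3.59, Tek -1.92, Pecam1 -0.37) and 4 did not pass, so the mean covers shifts in opposite directions.

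In the nucleolus, RNA polymerase I transcribes the ribosomal RNA precursor from repeated genes. Box C/D and box H/ACA snoRNPs then methylate the precursor and convert its uridines to pseudouridine, and successive assembly factors fold, cut and export the subunits. The output of this pathway sets the capacity for protein synthesis and is known to rise in growing and dividing cells, in part under the transcription factor MYC.

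The ribosome biogenesis genes were higher in ACDiEKO as a group. Of the 35 genes, 26 rose, none fell and 9 did not pass the test, where 8.92% of all tested genes rose. All 35 differences were above 0, which held for 45.3% of all tested genes. The median difference was 0.72, with a range of 0.05 to 1.86, and the median over all tested genes was -0.03. In 27 of the 35 genes every ACDiEKO sample lay above every control sample, a separation that 12.0% of all tested genes showed. These were the 26 genes that rose and Pes1. Because the genes were chosen with results of these data in view, the shares describe the group and do not test it. The largest differences were those of Ltv1 (1.86), Bop1 (1.79), Ddx21 (1.61), Nop58 (1.53), Bysl (1.48) and Fbl (1.17), which act at different steps of the pathway. Control replicates 3 and 4 carry animal numbers that lie apart from those of the other arrays. Without them 15 of the 35 rose, where 3.87% of all tested genes did, with a median of 0.74, and the 11 calls lost were those of Ncl, Npm1, Nolc1, Polr1a, Dkc1, Wdr43, Utp20, Rrp12, Tsr1, Nop2 and Bop1. By role, 1 of 5 nucleolar proteins, 1 of 5 polymerase I genes, 2 of 2 box C/D and 2 of 3 box H/ACA proteins, 6 of 12 small subunit and 3 of 8 large subunit factors then rose.

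**Figure D1:**
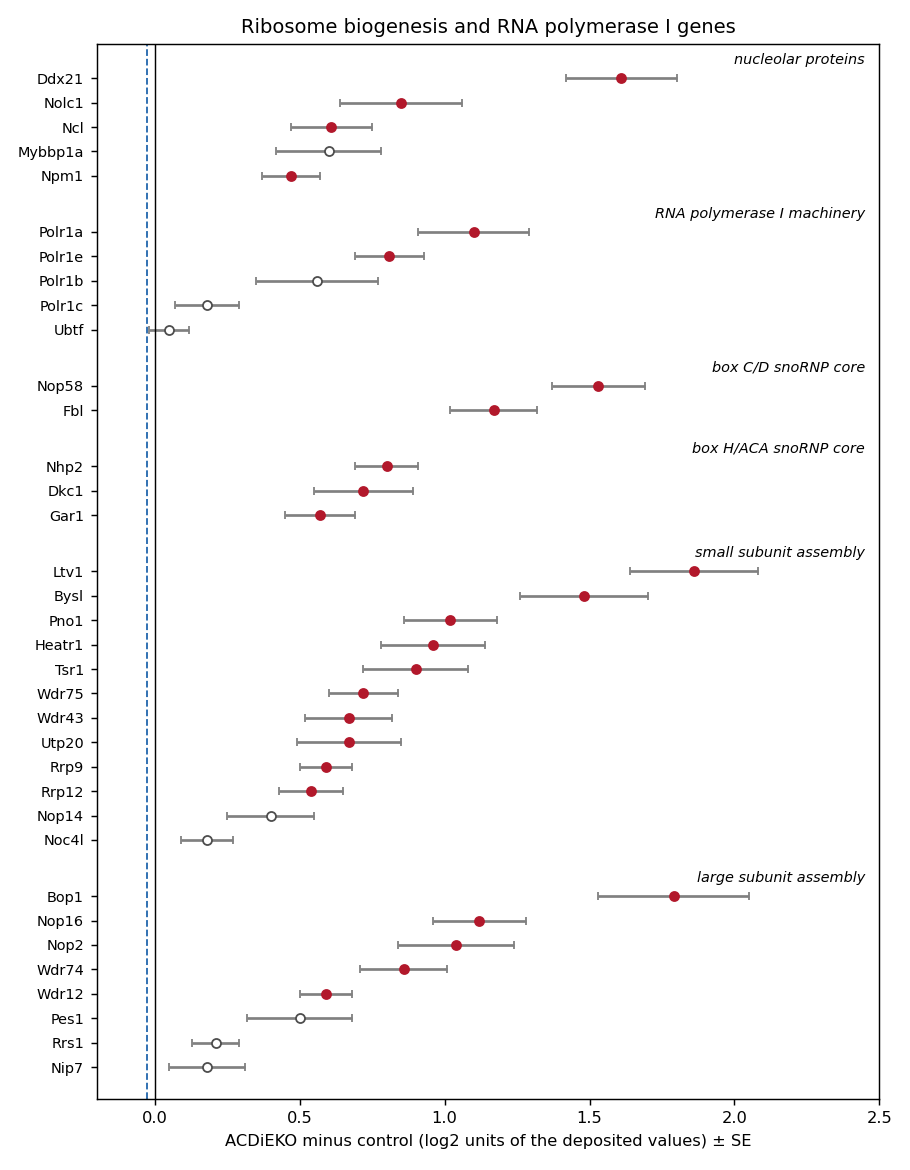
Difference between ACDiEKO and control in log2 units of the deposited values (x axis) for the 35 measured genes of ribosome biogenesis and RNA polymerase I, grouped by role, with the SE of the limma fit as bars. Filled points are the 26 genes that rose, open points are the 9 that did not pass, and the dashed line is the median of all tested genes (-0.03). All 35 points lie above 0, from Ubtf (0.05) to Ltv1 (1.86).

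The promoter sequences of these genes were read because the genes moved together and MYC is known to bind the E-box CACGTG. The RefSeq table (GRCm38.p6) held a window of 250 bases before to 50 after the start for 33 of the 38 genes. For genes with several windows, the first one listed was used. Searched on both strands, CACGTG was in 8 of the 33 windows (24.2%), against 9.82% of the windows of tested genes and 7.24% of all 27025. The ETS core CCGGAA was in 15 of 33 (45.5%), against 27.3% of tested and 15.2% of all genes. TATAAA was in 2 windows (6.06%, against 8.43% of tested genes) and the MEF2 consensus in 1 (3.03%, against 1.87% of tested genes). In 7 of the 8 genes with an E-box it began within the 50 bases after the start, and in Nop2 it lay before the start. Of all 1957 genes with an E-box in the window, 15.6% had one after the start. Each line gives 30 bases around the E-box of these 8 genes, 5′ to 3′ on the gene's strand, with the E-box in capitals.
Ltv1, chr10:13193092-13193121, minus strand: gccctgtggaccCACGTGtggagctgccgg
Nop2, chr6:125131811-125131840, plus strand: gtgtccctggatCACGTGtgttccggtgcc
Pno1, chr11:17211540-17211569, minus strand: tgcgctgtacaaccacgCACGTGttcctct
Tsr1, chr11:74898092-74898121, plus strand: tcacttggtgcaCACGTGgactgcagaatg
Wdr43, chr17:71616220-71616249, plus strand: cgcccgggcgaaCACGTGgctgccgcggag
Utp20, chr10:88826765-88826794, minus strand: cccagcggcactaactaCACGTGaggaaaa
Mybbp1a, chr11:72441347-72441376, plus strand: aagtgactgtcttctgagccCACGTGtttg
Pes1, chr11:3963965-3963994, plus strand: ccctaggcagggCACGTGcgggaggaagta

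Among the 8 genes with an E-box, 6 rose, and the median difference was 0.79 (range 0.50 to 1.86). Among the 22 measured genes whose window held none, 16 rose, with a median of 0.72 (0.05 to 1.61). Mybbp1a and Pes1, which carry the motif, did not pass. For the ETS core, 12 of 14 measured genes with it rose (median 0.85) and 10 of 16 without it (median 0.64). The windows of the 4 genes with the largest differences that hold the ETS core and no E-box follow, with CCGGAA or its reverse complement in capitals. Nop58 and Heatr1 each hold it at 2 places in their 300 bases.
Nop58, chr1:59684868-59684897, plus strand: aaggccgtctctTTCCGGattctactgtgg
Bysl, chr17:47611555-47611584, minus strand: gttgatcgaccgCCGGAAatgcgcaaatac
Heatr1, chr13:12395347-12395376, plus strand: cgtagtgagaagCCGGAAgttcctatgagg
Wdr74, chr19:8735800-8735829, plus strand: agtagtggcgcgCCGGAAgtgcaagccacg
In each line the motif lies before the start, and the choice by size of difference fixes that these genes rose. A match of letters is a description of the window, not of a bound site.

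RNA polymerase I itself was described by 5 genes, of which 2 rose and 3 did not pass. Polr1a, the largest catalytic subunit, read 8.38, 7.97, 8.06 and 7.88 in controls 1 to 4 and 9.68, 8.82, 9.17 and 9.04 in the ACDiEKO samples, in the order of the averaged sample (replicates 1 and 2) and replicates 3, 4 and 5. The groups did not overlap, and the rise was 1.10 (SE 0.19, adjusted p = 0.00743). Polr1e, a subunit peripheral to the core, read 6.74, 6.64, 7.05 and 6.79 in controls and 7.83, 7.37, 7.63 and 7.64 in ACDiEKO. It rose by 0.81 (SE 0.12, adjusted p = 0.00443), again without overlap. Polr1b, which forms the catalytic core with Polr1a, had control values of 8.34, 8.06, 8.04 and 7.43 and ACDiEKO values of 8.95, 8.34, 8.50 and 8.34. Control 1 reached the lowest ACDiEKO samples, and the difference of 0.56 (SE 0.21) did not pass (adjusted p = 0.108). Polr1c, which RNA polymerase III also contains, differed by 0.18 (adjusted p = 0.285), with controls of 10.13 to 10.62 around ACDiEKO values of 10.52 to 10.60; it passed with a term for the separate runs of animal numbers (0.35, adjusted p = 0.0414).

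Ubtf, the upstream binding factor that keeps ribosomal RNA genes open and recruits the polymerase, read 9.77, 9.73, 9.77 and 9.70 in controls and 9.93, 9.74, 9.72 and 9.77 in ACDiEKO, so 3 of the 4 ACDiEKO samples lay within the control range. Its difference of 0.05 (SE 0.07, adjusted p = 0.648) was the smallest of the 35. Of the other polymerase I genes in a list of 11 (remaining subunits, initiation and termination factors), 8 were tested, 1 rose, 1 fell and the median was -0.02. The one that rose was Rrn3, the initiation factor that couples polymerase I to growth signals, from 10.30 ± 0.18 to 10.82 ± 0.13 (SD, n = 4 and 4; difference 0.51, adjusted p = 0.0157, and 0.076 without both control replicates 3 and 4). Taf1a, a subunit of the promoter selectivity factor, fell by 0.45 (adjusted p = 0.0457), a call lost after median centring (adjusted p = 0.0882) and without control replicate 1 (0.103), 3 (0.0964) or 4 (0.105) or ACDiEKO replicate 3 (0.0531), 4 (0.115) or 5 (0.0933).

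All 5 measured snoRNP core proteins rose: 2 of 2 measured core proteins of the box C/D particles and 3 of 3 of the box H/ACA particles. Fibrillarin (Fbl), the methyltransferase of the box C/D particle, read 12.35, 11.88, 12.33 and 12.28 in controls and 13.57, 13.07, 13.56 and 13.32 in ACDiEKO. It rose by 1.17 (SE 0.15, adjusted p = 0.00233). Nop58, its scaffold, went from 11.27, 11.16, 11.31 and 10.93 to 13.03, 12.68, 12.81 and 12.27, a rise of 1.53 (SE 0.16) with an adjusted p of 0.00114, the smallest of the 35. In both genes the gap between the groups was wider than the range within either group.

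In the box H/ACA particle, dyskerin (Dkc1) is the pseudouridine synthase and Nhp2 and Gar1 are its partners. Nhp2 read 8.20, 8.50, 8.54 and 8.41 in controls and 9.42, 8.99, 9.23 and 9.22 in ACDiEKO, a rise of 0.80 (SE 0.11, adjusted p = 0.00345). Gar1 read 9.60, 9.81, 9.96 and 9.98 against 10.52, 10.36, 10.56 and 10.17, a rise of 0.57 (SE 0.12, adjusted p = 0.0161). Dkc1 read 9.89, 10.12, 10.23 and 9.97 against 11.25, 10.57, 10.81 and 10.48. Its rise was 0.72 (SE 0.17, adjusted p = 0.0237), without overlap, and the call was lost without control replicate 1 (adjusted p = 0.0593), control replicate 4 (0.0648) or ACDiEKO replicate 4 (0.0658). Of 9 other tested snoRNP proteins, which load and assemble the particles, 3 rose (1 where control replicate 2 or 4 or ACDiEKO replicate 4 was left out). The helicase Ruvbl2 of the assembly chaperone rose by 0.54 (adjusted p = 0.0156) and the adaptor Nufip1 by 0.51 (0.0203, or 0.051, 0.0577 and 0.0605 where control replicate 2, control replicate 4 and ACDiEKO replicate 4 were left out in turn).

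Several of these genes carry snoRNA genes within their own span, and some of those have array features of their own. Of 8 such features tested among all clusters, from 6 hosts, 2 rose, where 5.75% of all 31745 tested clusters rose. Snord92, within Wdr43, rose by 1.28 (SE 0.27, adjusted p = 0.0211), and the call was lost without control replicate 1 (0.0521), control replicate 2 (0.0512) or ACDiEKO replicate 4 (0.0578). Snord69, within Gnl3, rose by 0.89 (SE 0.18, adjusted p = 0.0158). Within Nop58, whose own feature rose by 1.53, Snord11 differed by 0.17 (adjusted p = 0.592) and Snord70 by -0.86 (0.3), and neither passed. Without both control replicates 3 and 4, Snord69 and Snord92 did not pass (adjusted p = 0.125 and 0.0729).

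**Figure D2:**
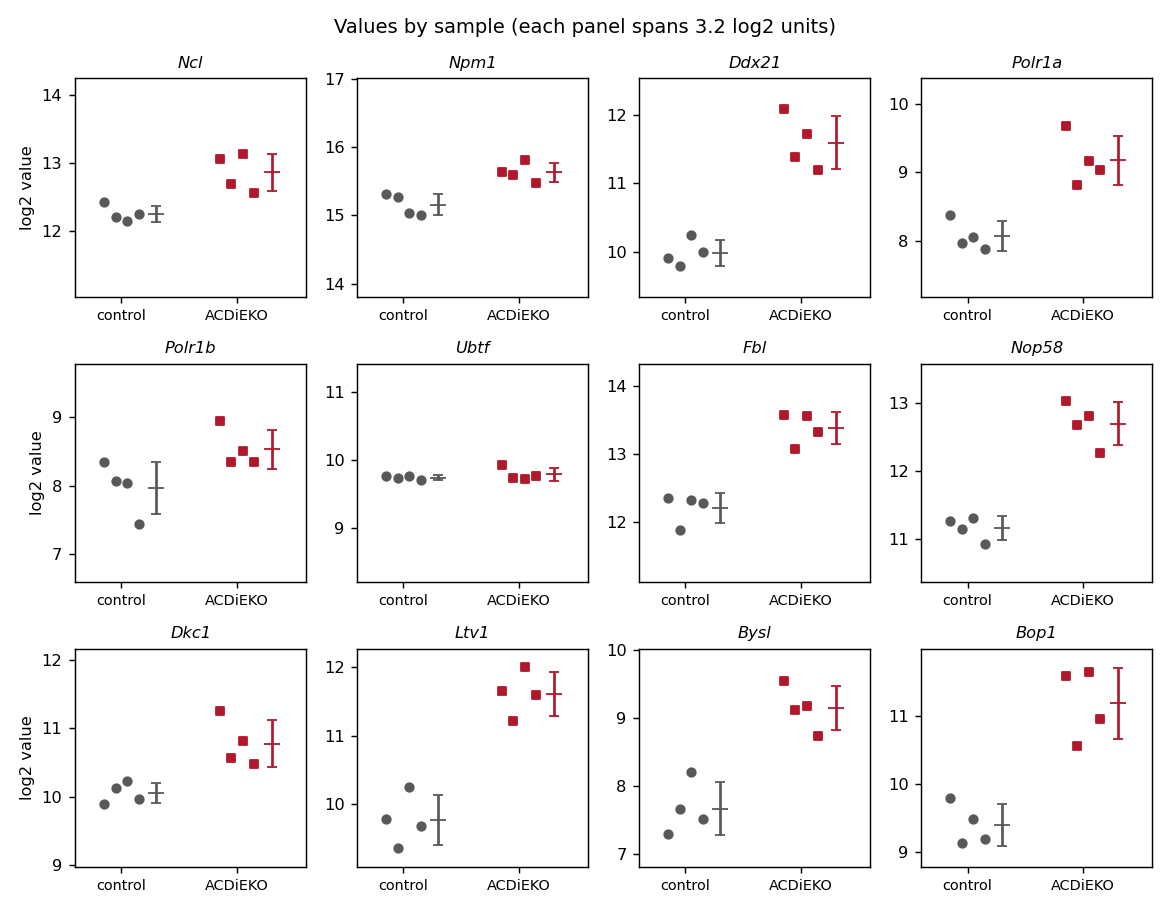
Log2 values by sample for 12 of the genes, with control samples as circles and ACDiEKO samples as squares (replicates 1 and 2 averaged), and the mean ± SD beside each group (n = 4 and 4). Ltv1, Bop1, Ddx21, Nop58, Bysl and Fbl show no overlap between groups, while Polr1b and Ubtf overlap.

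Among nucleolar proteins, 4 of 5 rose, or 2 of 5 where control replicate 2 or 4 or ACDiEKO replicate 4 was left out. Ddx21, a helicase active in ribosomal RNA transcription and processing, read 9.91, 9.79, 10.24 and 9.99 in controls and 12.09, 11.38, 11.73 and 11.20 in ACDiEKO. Its rise of 1.61 (SE 0.19, adjusted p = 0.00194) was the largest of the group. Nucleophosmin (Npm1), the abundant chaperone of the outer nucleolar layer, read 15.31, 15.27, 15.04 and 15.01 against 15.64, 15.60, 15.81 and 15.47, a rise of 0.47 (SE 0.10, adjusted p = 0.0178). Nucleolin (Ncl), which binds nascent ribosomal RNA, read 12.43, 12.21, 12.15 and 12.25 against 13.06, 12.70, 13.14 and 12.57. The groups overlapped in neither gene, and control 1 was the control nearest to the ACDiEKO samples in both.

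Ncl rose by 0.61 (SE 0.14, adjusted p = 0.0226), and the call was lost without control replicate 2 (adjusted p = 0.0565), 3 (0.0606) or 4 (0.0586) or ACDiEKO replicate 4 (0.0564). Nolc1, a chaperone of snoRNPs, rose by 0.85 (SE 0.21, adjusted p = 0.0282), with 10.58 in the averaged ACDiEKO sample and 9.63 to 9.88 in the other ACDiEKO samples. Its call was lost without the same arrays (control replicate 2, 0.0648; 3, 0.0575; 4, 0.0762; ACDiEKO replicate 4, 0.0682). Mybbp1a, a nucleolar regulator of polymerase I transcription, differed by 0.60 (SE 0.18, adjusted p = 0.0522), and 9.44 in control 3 overlapped 9.37 in ACDiEKO replicate 5. It passed without control replicate 3 (adjusted p = 0.0272), without ACDiEKO replicate 5 (0.0443), after median centring (0.0426) and after quantile normalization (0.0253).

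Of 12 genes for small subunit assembly, 10 rose and 2 did not pass, with a median of 0.70. Ltv1 and Bysl had the largest rises. Ltv1, needed for export and final maturation of the particle, read 9.77, 9.35, 10.24 and 9.67 in controls and 11.65, 11.21, 12.00 and 11.59 in ACDiEKO, a rise of 1.86 (SE 0.22, adjusted p = 0.00174). Bystin (Bysl) read 7.29, 7.67, 8.21 and 7.51 against 9.54, 9.12, 9.18 and 8.74, a rise of 1.48 (SE 0.22, adjusted p = 0.00467). In both, control 3 was the highest control and still lay below every ACDiEKO sample. Pno1, which occupies the platform of the particle until its last cut, rose by 1.02, the GTPase-like Tsr1 by 0.90 and the export factor Rrp12 by 0.54 (adjusted p = 0.00593, 0.0131 and 0.0126).

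The early small subunit processome forms on the transcript while it is being made. Rrp9, a protein of the guiding snoRNP, read 8.45, 8.51, 8.70 and 8.54 in controls and 9.31, 9.02, 9.20 and 9.03 in ACDiEKO, a rise of 0.59 (SE 0.09, adjusted p = 0.00498). Heatr1, Wdr43 and Wdr75, of the subcomplex that links transcription to processing, rose by 0.96, 0.67 and 0.72 (adjusted p = 0.0103, 0.0206 and 0.00586). Utp20, a large scaffold protein, rose by 0.67 (SE 0.18, adjusted p = 0.0394), from 7.41 to 7.97 in controls to 8.02 to 8.58 in ACDiEKO. The call of Wdr43 was lost without control replicate 2 (adjusted p = 0.0543), control replicate 4 (0.0576) or ACDiEKO replicate 4 (0.0523). That of Utp20 was lost without control replicate 1 (0.0898), 2 (0.0834) or 4 (0.0993) or ACDiEKO replicate 4 (0.104).

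Nop14 and Noc4l, which bind each other in the processome, were the 2 that did not pass. Nop14 differed by 0.40 (SE 0.15, adjusted p = 0.108), with controls at 10.83 to 11.39 and ACDiEKO at 11.23 to 11.74. Noc4l differed by 0.18 (SE 0.09, adjusted p = 0.222), and 4 of the 9 arrays held the same value of 7.87 to 5 decimals. Of 41 other tested genes of small subunit assembly, 6 rose, none fell and 33 had a difference above 0, with a median of 0.25. Mphosph10, a processome protein, rose by 0.75 (adjusted p = 0.00261) and Utp18 by 0.83 (0.00567). Without control replicate 4 the count was 3 and without ACDiEKO replicate 4 it was 2, while it was 10 after median centring and 13 after quantile normalization. Of all tested genes, 6.13%, 5.78%, 11.3% and 12.0% rose in these settings, in that order, and 8.92% in the main fit. The counts of 3 and 2 of 41 lay near the shares of their settings.

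Large subunit assembly was covered by 8 measured genes, of which 5 rose, with a median of 0.72. Bop1, Pes1 and Wdr12 form a complex required to mature the large subunit, and its members differed in size of change. Bop1 read 9.79, 9.13, 9.48 and 9.19 in controls and 11.58, 10.56, 11.64 and 10.96 in ACDiEKO, a rise of 1.79 (SE 0.26, adjusted p = 0.00423). Wdr12 read 9.38, 9.24, 9.39 and 9.21 against 10.10, 9.79, 9.85 and 9.85, a rise of 0.59 (SE 0.09, adjusted p = 0.00444). Pes1 did not pass (difference 0.50, SE 0.18, adjusted p = 0.0924), although its controls (11.38 to 11.68) lay below all ACDiEKO samples (11.72 to 12.55). Whether the changes of the complex's members differ from each other was not tested.

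Nop16, another large subunit factor, read 9.74, 9.95, 9.28 and 9.63 in controls and 11.08, 10.73, 10.62 and 10.67 in ACDiEKO, a rise of 1.12 (SE 0.16, adjusted p = 0.00356). Nop2, a ribosomal RNA methyltransferase, rose by 1.04 (SE 0.20, adjusted p = 0.0108) and Wdr74 by 0.86 (SE 0.15, adjusted p = 0.0089). Rrs1, which helps to dock the smallest ribosomal RNA, differed by 0.21 (SE 0.08, adjusted p = 0.107) and Nip7 by 0.18 (SE 0.13, adjusted p = 0.355), and the groups overlapped in both. Of 50 other tested genes of large subunit assembly, 20 rose and none fell, with a median of 0.34. Ddx31, a nucleolar helicase, rose by 0.60 (adjusted p = 0.00273) and Brix1 by 0.71 (0.00631; 0.0598 without both control replicates 3 and 4). That count was 12 without control replicate 1 or ACDiEKO replicate 3, 13 without control replicate 3, 9 without control replicate 2 or 4, and 8 without ACDiEKO replicate 4.

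Over the 4 lists of other biogenesis genes together, 30 of 108 tested genes rose, 1 fell and 87 had a difference above 0, with a median of 0.26. The count was 49 after quantile normalization, 12 to 32 when 1 array was left out and 5 without both control replicates 3 and 4, where Ruvbl2 (adjusted p = 0.0685) and Nufip1 (0.0609) did not pass. Of all tested genes, 8.92% rose in the main fit and 12.0% after quantile normalization. The share was 5.78% without ACDiEKO replicate 4 and 3.87% without both control replicates 3 and 4. The 5 of 108 in that last setting lay near its share. Leaving out control replicate 2 gave 15, control replicate 4 gave 14, ACDiEKO replicate 3 gave 19 and ACDiEKO replicate 4 gave 12. The 35 genes had been proposed with results of these data in view, and their higher share is therefore not independent evidence that they respond more than other biogenesis genes.

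**Figure D3:**
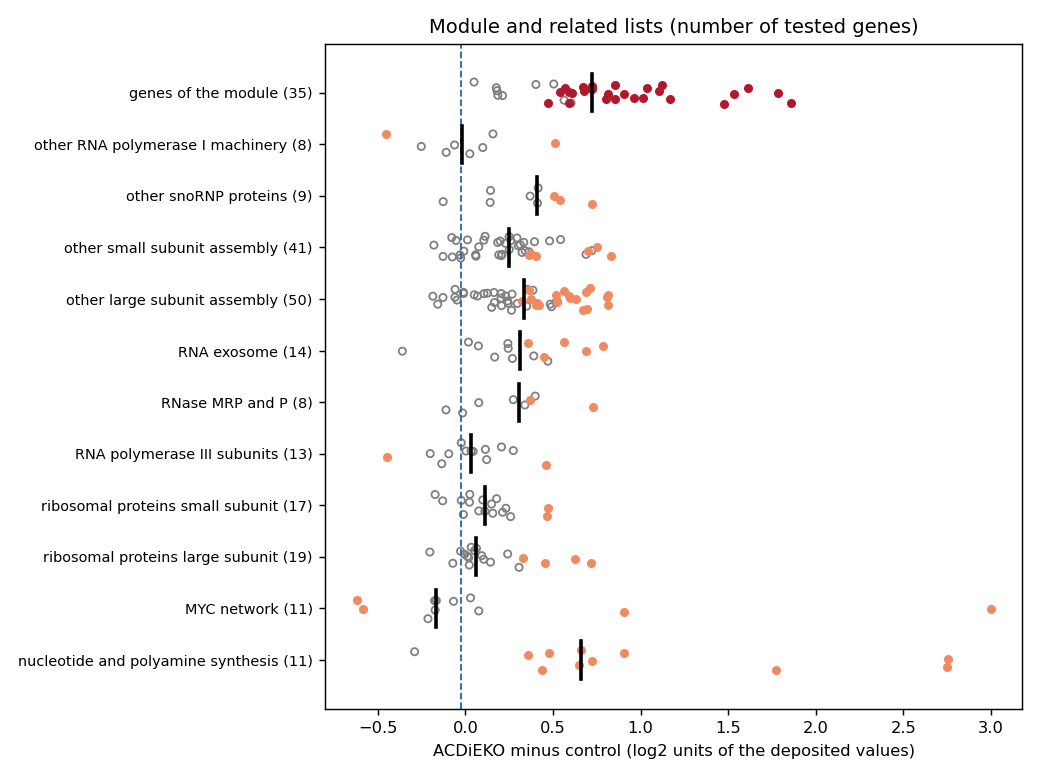
Difference between ACDiEKO and control in log2 units (x axis) for each tested gene of the module and of 11 related lists, with the number of genes in brackets. Filled points passed the test, open points did not, black bars are list medians and the dashed line is the median of all tested genes; the module's median (0.72) is followed by that of nucleotide and polyamine synthesis (0.66), and the ribosomal proteins have medians of 0.11 (small subunit) and 0.06 (large subunit).

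The ribosomal proteins are the cargo of this pathway. Many have near-identical copies in the genome, and 36 of 82 lay on features with 1 symbol. Of these, 6 rose, none fell and 28 had a difference above 0, and the median difference was 0.10. Rpsa rose from 12.15 ± 0.08 to 12.62 ± 0.04 (SD, n = 4 and 4; adjusted p = 0.0031), Rps24 by 0.47 (0.0133), Rpl12 by 0.72 (0.017) and Rplp0 by 0.46 (0.0259; lost without control replicate 1, 0.0576, ACDiEKO replicate 4, 0.0506, or ACDiEKO replicate 5, 0.0531). Single values are uncertain because probes may not tell the copies apart. The count was 3 without ACDiEKO replicate 4 or 5, 4 without control replicate 1, 3 or 4, and 1 without both control replicates 3 and 4, where Rpl12 (adjusted p = 0.102), Rplp0 (0.107) and Rps24 (0.0606) did not pass. In that last setting 3.87% of all tested genes rose, against 8.92% in the main fit.

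Of 14 tested genes of the RNA exosome, which trims ribosomal RNA precursors, 5 rose (3 where control replicate 1 or 4 or ACDiEKO replicate 4 was left out), with a median of 0.31. Its nuclease Dis3 rose by 0.78 (adjusted p = 0.0104) and Exosc1 by 0.56 (0.0115), and neither passed without both control replicates 3 and 4 (0.0647 and 0.0593). Of 8 genes of RNase MRP and RNase P, which cut ribosomal and transfer RNA precursors, 2 rose: Rpp38 by 0.73 (adjusted p = 0.00605) and Pop1 by 0.37 (0.0497), whose call was lost without any control replicate (0.0791, 0.0808, 0.107 and 0.112) and without ACDiEKO replicate 2 (0.054) or 4 (0.117). Among 13 genes of RNA polymerase III, which makes transfer RNA and the smallest ribosomal RNA, 1 rose and 1 fell, with a median of 0.03. Polr3e rose by 0.46 (adjusted p = 0.0327; lost without control replicate 1, 0.0774, 2, 0.0788, or 4, 0.075, or ACDiEKO replicate 5, 0.0711). Polr3gl fell by 0.45 (0.0292; lost after quantile normalization, 0.0551, and without control replicate 2, 0.0692, 3, 0.0516, or 4, 0.076, or ACDiEKO replicate 4, 0.077).

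Myc, whose product is known to activate many genes of ribosome biogenesis, read 8.68, 8.37, 7.24 and 7.47 in controls and 11.45, 10.80, 11.16 and 10.35 in ACDiEKO. The groups did not overlap, and it rose by 3.0 (SE 0.37, adjusted p = 0.00205), more than any of the 35 genes. Of 11 tested genes of the MYC network, Myc and Mxd3 (0.91, adjusted p = 0.00104) rose, Mlxip (-0.62) and Mlx (-0.58) fell, and Max, the partner of MYC, differed by 0.03. In nucleotide and polyamine synthesis, 10 of 11 tested genes rose, with a median of 0.66. Odc1, the rate-limiting enzyme of polyamine synthesis, rose by 2.75 (SE 0.25, adjusted p = 0.000668) and spermidine synthase (Srm) by 1.77 (SE 0.23, adjusted p = 0.00254), both higher in every ACDiEKO sample than in any control. Of the 11, 7 rose without control replicate 2 or ACDiEKO replicate 4, and 5 rose without both control replicates 3 and 4.

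The ACDiEKO samples were not equal. In 27 of the 35 genes the averaged sample of replicates 1 and 2 was the highest of its group, and replicate 4 was the highest in the other 8. Replicate 5 was the lowest in 18 and replicate 3 in 15. Measured from the control mean of each gene, the median difference was 1.00 in the averaged sample, 0.54 in replicate 3, 0.82 in replicate 4 and 0.51 in replicate 5, so all 4 samples were shifted the same way. Above every control lay 34, 31, 33 and 27 of the 35 genes in these samples. The share of all tested genes above every control was not taken for single samples, so these counts stand without a background. Among controls, replicate 3 was the highest in 18 genes. Without ACDiEKO replicates 1 and 2 the count of rises was 24, where 6.22% of all tested genes rose, with a median of 0.58 over the 35 genes.

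Marker lists of division and of smooth muscle also held rises. All 18 tested cell cycle genes rose, and their mean was 7.27 to 7.66 in controls and 9.47 to 10.40 in ACDiEKO. Bub1b (controls 5.75 to 5.95), Ccnb2 (5.81 to 6.47) and Kif11 (5.75 to 6.36) passed the filter on dim genes (6.165) only with their ACDiEKO arrays. The same held for Lmod1 (6.09 to 6.46) of the smooth muscle list. The count of cell cycle rises was 16 to 18 when 1 array was left out and 15 without both control replicates 3 and 4. Smooth muscle markers rose in 8 of 12 (mean 8.27 to 9.25 against 9.59 to 10.55). Tagln (3.82), Myl9 (3.68), Acta2 (3.19), Synpo2 (2.15), Smtn (2.04), Lmod1 (0.98), Tpm2 (0.90) and Actg2 (0.59) rose. Mylk (0.43), Myh11 (-0.04), Myocd (-0.15) and Cnn1 (-0.27) did not pass. The count of smooth muscle rises was 5 without control replicate 4 or ACDiEKO replicate 4, and 0 without both control replicates 3 and 4. None of 6 immune markers passed, and their mean was 6.82 to 7.86 in controls, 7.31 to 7.98 in 3 ACDiEKO samples and 9.93 in replicate 5. That sample was among the lowest ACDiEKO samples for ribosome biogenesis, with a mean of 9.93 over the 35 genes against 9.24 to 9.44 in controls. Without it 27 of the 35 rose, where 8.16% of all tested genes did. Fibroblast markers (1 of 7 fell), adipocyte markers (0 of 5 passed) and erythrocyte markers (0 of 2 passed) had overlapping means in both groups. The part of these cells in the differences was not tested, and in RNA from a whole layer more cells of a type and more RNA per cell cannot be told apart.

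**Figure D4:**
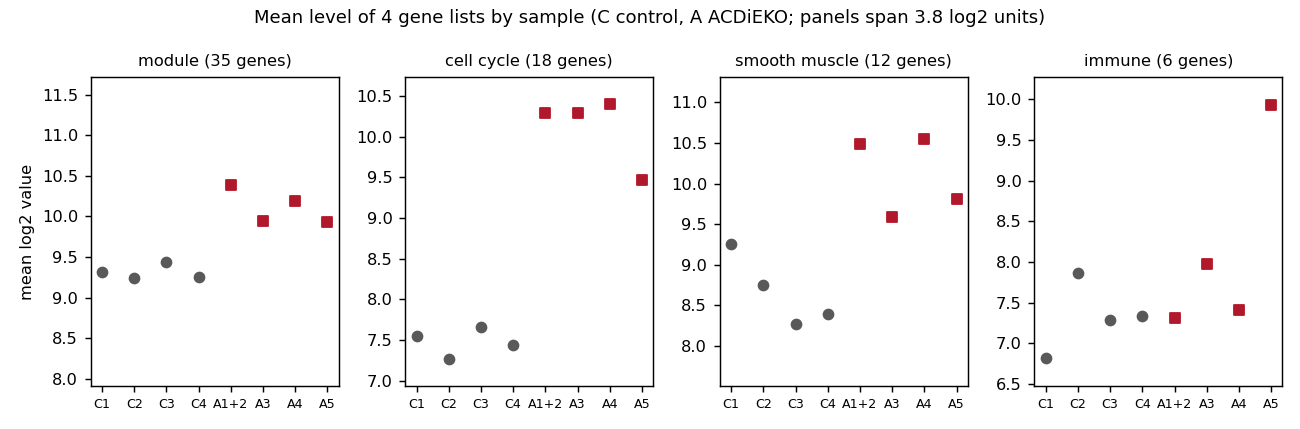
Mean log2 value per sample (y axis) over the 35 measured ribosome biogenesis genes, 18 cell cycle genes, 12 smooth muscle markers and 6 immune markers, with controls as circles and ACDiEKO samples as squares. The ribosome biogenesis mean was 9.24 to 9.44 in controls and 9.93 to 10.39 in ACDiEKO, and the immune mean stood at 9.93 in ACDiEKO replicate 5.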

How the data were processed

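The authors deposited log2 values from RMA, as the tool is named per the submitters' processing notes, 1 per transcript cluster, from 9 whole-transcriptome arrays hybridised with 5 ng of amplified RNA each, per the labels. They run from 2.58 to 19.34, wider than a scanner's usual range, so differences are given in log2 units of the deposited values and not as folds. Build and annotation are not given in the sources used here.

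Of 72688 features, 6732 array controls were left out. Of 65956 clusters, 30604 had 1 symbol, 2146 several and 33206 none listed. Gene IDs updated 827 symbols to the GRCm38 RefSeq table. The brightest cluster per symbol gave 30142 genes, and the 16403 with at least 4 arrays above the table's median (6.165) were tested with limma 3.58.1 in R 4.3.3 (lmFit, eBayes, Benjamini-Hochberg at 0.05, two-sided). Unless another setting is named, every adjusted p-value is from that fit. SnoRNA features were tested among all clusters that passed the same filter, and their nesting ignores strand, which the table does not give. The labels give 2 controls the number 3, and the second of them is called control replicate 4. Deviations from the group means of samples sharing a number correlated across genes at 0.00144 (number 1), -0.164 (2), 0.0747 and 0.0431 (3, with either control), the averaged sample standing for numbers 1 and 2, so the numbers do not pair them.

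The genes, the lists and the rules for naming were chosen with earlier results of these data known. Named were the 3 genes of each role with the smallest p, Ncl, Npm1, Fbl, Polr1a, Polr1b, Ubtf and Myc, and 2 genes of each related list; further genes of the module are given with fewer values. Beyond that rule, Max, Mlx, Mlxip, the cell cycle, endothelial and smooth muscle markers and the snoRNAs were named after their values were seen. The limma step was tested on simulated data. Planted differences of size 0.5, 1 and 2 passed in 28.7%, 77% and 93.3% of cases, and 6.23% of calls were false. Each of 5 runs changed 200 of 16403 genes, with noise independent between genes, whereas 16.3% of tested genes passed in the data. The cut-off depends on how many genes change, so these rates need not hold for the data. Planted differences were missed in the simulation, and a gene that did not pass is not shown to be unchanged. Alternatives were other filters and thresholds, centring, quantile normalization, mean of clusters, variance settings, the replicate block, all 9 arrays, the animal numbers and leaving out arrays. Figures were drawn with matplotlib 3.10.9 in Python 3.11.15.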

Additional observations from a re-analysis of the deposited data

Results flagged for a closer look

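In 3 instances a sample stood far from the other 3 of its group, by the gap to the nearest of them as a part of the group's range (0.848 for Fbl, 0.885 for Rrs1 and 0.869 for Rps24). Control replicate 2 was low for Fbl at 11.88 (the other controls 12.28 to 12.35) and high for Rrs1 at 7.65 (7.44 to 7.46). ACDiEKO replicate 4 was high for Rps24 at 12.06 (11.79 to 11.83). Chance flags about 1 in 20 groups, and 114 groups were examined.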

How the results depend on the processing

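No gene of the module had a difference below 0 in any of 23 other settings, and the median was 0.58 to 0.80 (the highest over the 27 genes that a stricter filter kept). Settings that changed only the threshold, the filter on dim genes or the variance estimate could not alter a gene's difference. The count of rises was 21 to 27 when 1 array was left out, and 21 of the 26 rises passed in each of these fits. Pairing of the arrays by title number was not seen and not assumed. With the replicate block, in which the averaged sample has number 1, 2 of the 35 genes rose (Nop58, adjusted p = 0.0359, and Nop16, 0.0431), and over all tested genes 495 passed, 327 higher and 168 lower. A sample whose number no sample of the other group shares adds nothing to that contrast. The block fit thus rests on fewer samples than the main fit, and its lower counts are no measure of pairing. Without both control replicates 3 and 4, 15 of the 35 rose and 1127 genes passed (634 higher, 493 lower). With a term for the separate runs of animal numbers, 1692 passed (934 higher, 758 lower). Leaving out 1 array gave 1680 to 2701 genes in all, 948 to 1466 higher and 732 to 1235 lower, with the lowest counts without ACDiEKO replicate 4. Without ACDiEKO replicates 1 and 2, 1021 were higher and 801 lower. At an adjusted p of 0.01, 1035 passed (605 higher, 430 lower) and 15 of the 35 rose. At 0.1, 4045 passed, 1952 of them lower. Snord91a, within Tsr1, went from 0.12 to -0.01 without control replicate 1 (up to 0.25 without control replicate 3), and passed in neither. Centring moved the median of all genes from -0.03 to 0.04. The cause of these shifts was not tested. The number of arrays limits what can be seen, and background signal was not used here.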
